A study of Mus musculus with 48 samples.

Results

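The loci of the brain microRNAs miR-9 and miR-124 were followed through lists of H3K27ac peaks in developing mouse tissues. The 6 loci, Mir9-1, Mir9-2, Mir9-3, Mir124a-1, Mir124a-2 and Mir124a-3, were each taken as a window of the mouse genome build mm9 between 60 and 90 kb long. A peak was counted for a locus when it overlapped its window by at least 1 bp. By that rule 133 peaks were found among the 620207 peaks of 24 lists, 108 of them in the 9 forebrain lists, 11 in the 8 heart lists and 14 in the 7 liver lists. The windows were picked because earlier results of these data had shown them marked in forebrain, so the tissue contrast is given as a description with no test.

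H3K27ac, acetylation of histone H3 at lysine 27, marks active enhancers and promoters, and it was measured by chromatin immunoprecipitation followed by sequencing. Mice of the outbred strain CD-1 gave forebrain, heart and liver samples at E11.5, E14.5, E17.5, P0, P7, P21 and P56, where E is the embryonic and P the postnatal day. At every stage but P56 a sample holds tissue of several embryos or mice mixed together, so that variation between animals cannot be seen in those lists. There were 2 replicates for E11.5 forebrain and heart and for P56 forebrain, and 1 for each of the remaining 18 combinations of tissue and stage, and every one had a library of input DNA.

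MicroRNAs are short RNAs cut from a hairpin precursor that pair, mostly through their seed near the 5′ end, with messenger RNAs and lower their output. In vertebrate brain miR-9 is made in neural progenitors and in neurons, where it acts on regulators of progenitor maintenance such as Hes1, Nr2e1 (Tlx) and Rest. miR-124 is the abundant microRNA of differentiated neurons and acts on Ptbp1, a splicing repressor of neuronal exons, and on Ctdsp1, a phosphatase that works with the neuronal gene repressor REST. Each family has 3 precursor genes on separate parts of the mouse genome, and long non-coding RNAs serve as host transcripts for several of them.

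The miR-9 sequences are shown because the 3 Mir9 windows, which differ in their acetylation, encode the same product. RefSeq sequences on GRCm38.p6 matched 3 of the 6 loci, the Mir9 ones. In the mature forms the capitals mark the seed, bases 2 to 8.
mmu-miR-9-5p: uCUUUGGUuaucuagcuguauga
mmu-miR-9-3p: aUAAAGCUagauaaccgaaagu

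Both mature forms, 23 and 22 nt long, were identical in the 3 loci. The hairpins around them were not. In the hairpins the capitals mark the arms that become miR-9-5p and miR-9-3p, and the lower case between them is the terminal loop. All 3 lie on the plus strand, at chr3:88215598-88215686 for Mir9-1, chr13:83738814-83738885 for Mir9-2 and chr7:79505264-79505353 for Mir9-3. These are GRCm38.p6 positions and cannot be laid over the mm9 positions used for peaks.
Mir9-1: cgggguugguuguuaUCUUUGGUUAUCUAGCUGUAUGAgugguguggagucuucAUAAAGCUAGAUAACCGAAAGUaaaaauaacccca
Mir9-2: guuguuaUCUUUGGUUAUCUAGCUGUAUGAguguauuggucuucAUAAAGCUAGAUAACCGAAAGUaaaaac
Mir9-3: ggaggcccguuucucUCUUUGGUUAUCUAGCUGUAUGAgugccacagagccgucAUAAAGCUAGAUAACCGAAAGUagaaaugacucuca

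The sequence between the arms was 16 nt in Mir9-1, 14 nt in Mir9-2 and 16 nt in Mir9-3, so the precursors differ outside the mature arms while the mature RNAs cannot show which locus they came from. In the GRCm38.p6 gene table the Mir9-1 hairpin lies within the long non-coding RNA Gm3764, with the coding genes Mef2d and Rhbg on its sides. Mir9-2 lies within C130071C03Rik, between Mef2c and Tmem161b, and Mir9-3 within Mir9-3hg, between Polg and Rhcg. Mir124a-1 lies within Mir124a-1hg, between Msra and Kif13b, and Mir124a-2 within Mir124-2hg, between Ythdf3 and Cypt12. Mir124a-3 has no spanning gene in that table and lies between Bhlhe23 and Ythdf1.

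Depth differed between the tissues. Forebrain H3K27ac libraries held 17135627 to 33394166 uniquely mapped reads, heart libraries 4644972 to 25929812 and liver libraries 4108135 to 21429854, by the authors' deposited summary. The lists held 11871 to 36771 peaks in forebrain, 7376 to 39133 in heart and 12474 to 35535 in liver. Heart P21 stood apart, with the shortest H3K27ac list and an input list of 23762 peaks, while the other input lists held at most 865. The summary gives 23852 peaks for heart P21 H3K27ac, against 7376 in its list, and the filter between them is not stated. Track names fall into the series IO and LPAN: all forebrain lists are IO except P56 replicate 2, all liver lists are LPAN, and heart is IO at E11.5 and P56 and LPAN at the other stages. Forebrain and liver therefore cannot be told apart from the name series, except at P56, where forebrain replicate 2 is LPAN. The other H3K27ac lists were also shorter than their number in the summary, as with 15823 against 19811 in forebrain E11.5 replicate 1. A list holds only called peaks that passed the unstated filter. A window with none may thus have been below the authors' calling threshold or have lost its peak to the filter. This does not show that acetylation was absent.

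The amount of acetylated sequence at a locus was taken as the percent of its window covered by peaks. In forebrain every one of the 6 windows held peaks in all 9 lists, 49 peaks in the Mir9 windows and 59 in the Mir124a windows. In all 6 windows every forebrain list was also covered more than every heart and liver list. That property held for 0.841% of the 24963 tiles of 70 kb with a peak in any list, and nothing is read from it, since the windows were picked on this contrast. In 3 windows, Mir9-3, Mir124a-1 and Mir124a-2, no heart or liver list had a peak, a pattern with peaks in every forebrain list that 0.417% of tiles shared.

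**Figure D1:**
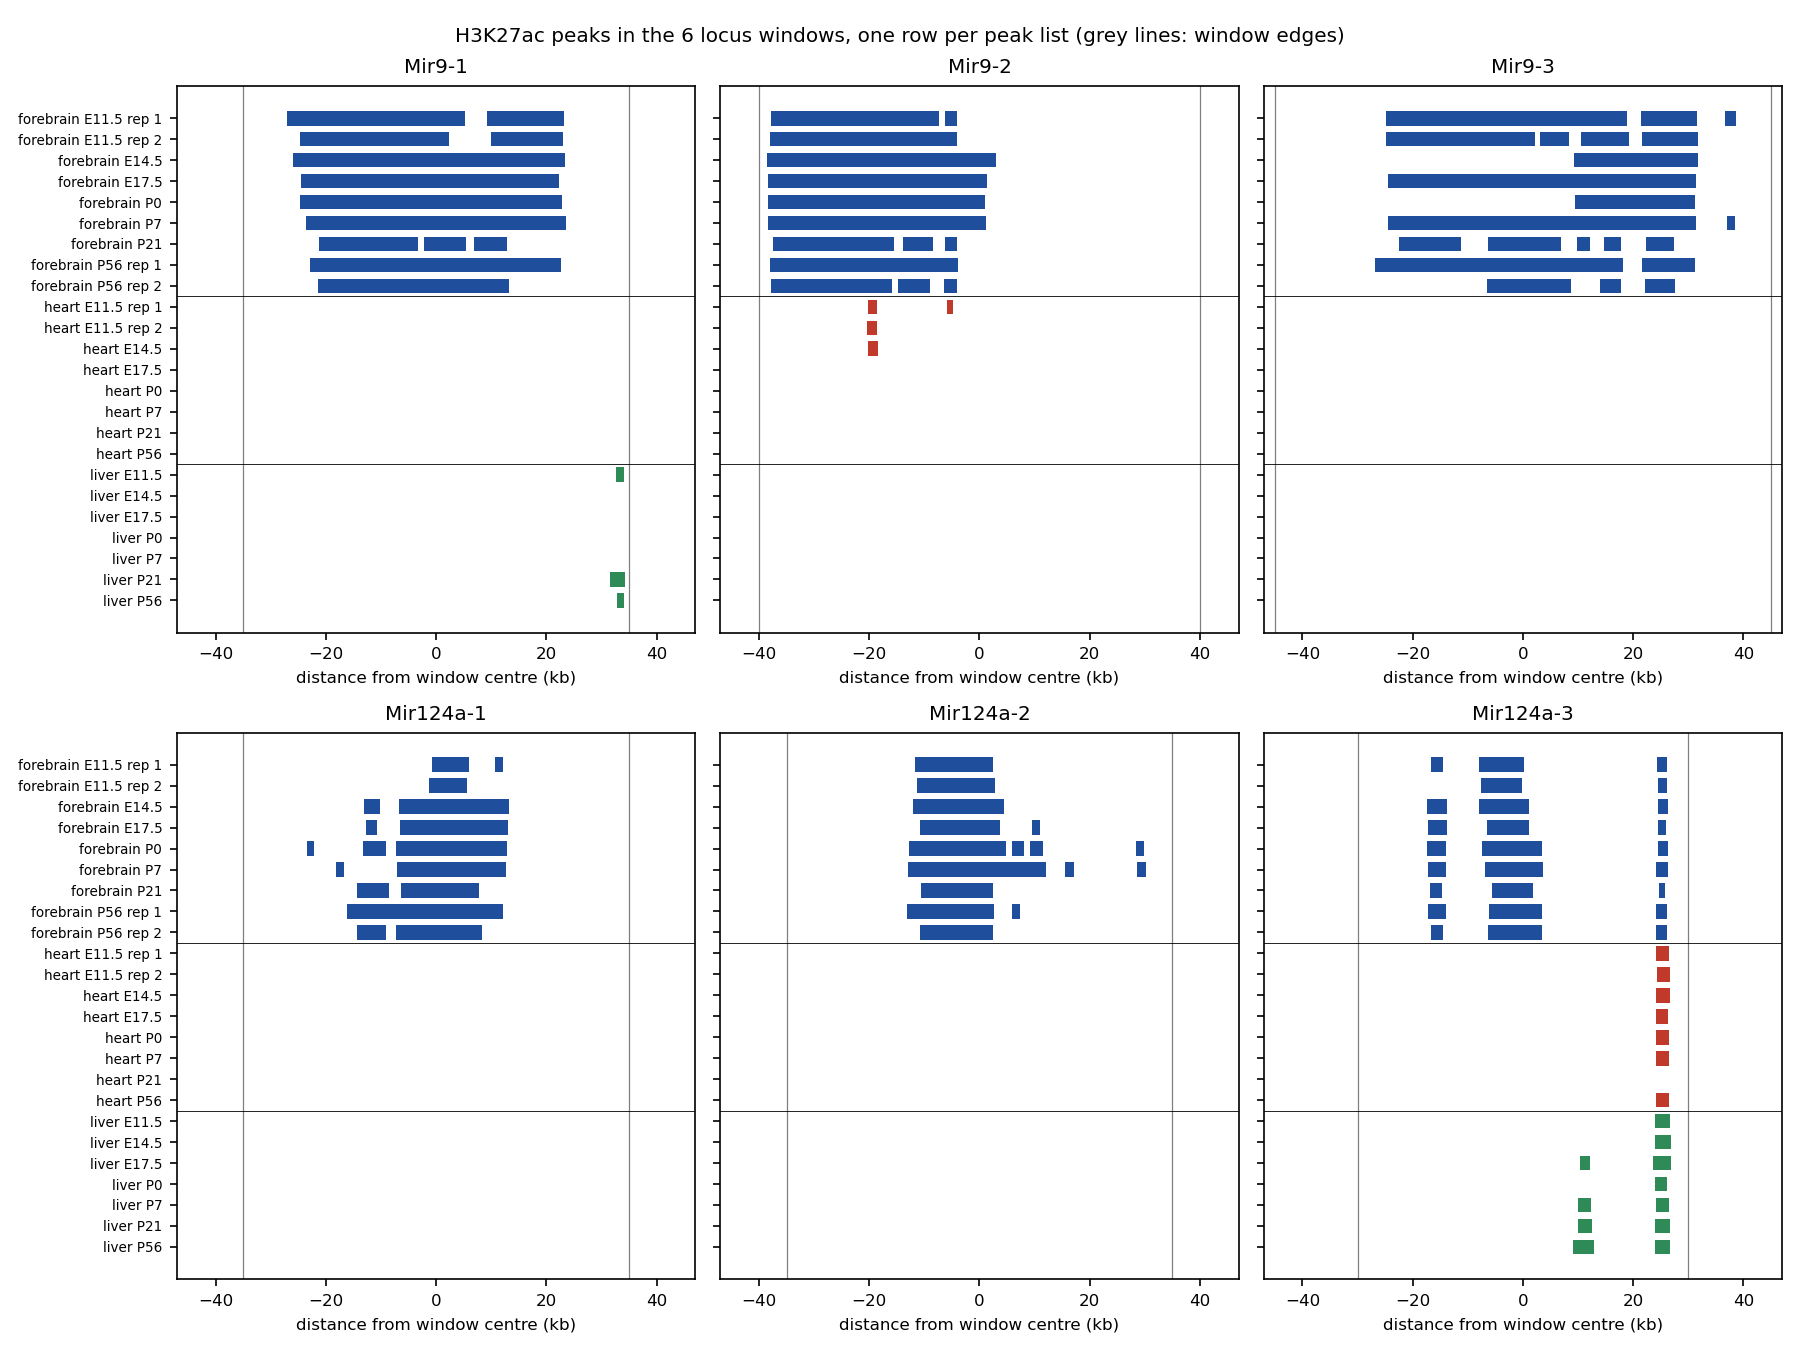
Peaks (bars) of each of the 24 H3K27ac lists (1 row each, by tissue and stage) in the 6 windows, against the distance from the window centre in kb; grey lines are the window edges. Forebrain rows hold bars in all 6 windows, while heart and liver rows hold none in Mir9-3, Mir124a-1 and Mir124a-2.

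Mir9-1, on chr3:87990001-88060000, had the highest average forebrain coverage of the 6. Its forebrain coverage was 66.2% and 56.99% in the E11.5 replicates, 70.5% at E14.5, 67.0% at E17.5, 67.7% at P0, 67.4% at P7, 45.2% at P21, and 65.1% and 49.4% in the P56 replicates. The low values were P21 and P56 replicate 2, and the P56 replicates differed by 15.7 percentage points. Averaged over 7 stages, forebrain was covered to 62.4% ± 8.78 (SD), heart to 0 and liver to 1.12% ± 1.56. The liver value came from 3 peaks at E11.5, P21 and P56 within chr3:88056510-88059282, close to the upper window edge and outside any forebrain peak. The forebrain peaks together covered 50.6 kb, chr3:87998018-88048602.

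At Mir9-1 that stretch was called as 1 peak of 49.4 kb at E14.5, 46.9 kb at E17.5, 47.4 kb at P0, 47.2 kb at P7 and 45.6 kb in P56 replicate 1. At E11.5 it was broken into a larger and a smaller peak in both replicates, with an uncovered gap between chr3:88030341 and chr3:88034177 in replicate 1. At P21 it was broken into 3 peaks, the widest of 18.0 kb. In P56 replicate 2 only the lower part was called, a single peak of 34.6 kb that ended at chr3:88038149. The lower part, chr3:88003701-88021669, was covered in all 9 forebrain lists.

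Mir9-2, on chr13:83850001-83930000, varied least among the Mir9 windows. Its forebrain coverage was 41.0% and 42.3% in the E11.5 replicates, 52.1% at E14.5, 49.7% at E17.5, 49.3% at P0, 49.5% at P7, 37.2% at P21, and 42.7% and 37.5% in the P56 replicates. The stages from E14.5 to P7 were the high ones, and P21 and P56 replicate 2 were again the low ones. Forebrain averaged 45.6% ± 5.85, heart 0.732% ± 1.26 and liver 0 (SD, n = 7 stages).

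Heart had peaks at Mir9-2 in 3 lists, all early: 3.49% and 2.27% of the window were covered in the E11.5 replicates and 2.25% at E14.5, and no later heart list had a peak. Each of these lists held a peak at nearly one place, chr13:83869735-83871358 in E11.5 replicate 1, chr13:83869552-83871363 in E11.5 replicate 2 and chr13:83869722-83871518 at E14.5. That place lies inside the stretch of chr13:83852459-83874182 that was covered in all 9 forebrain lists. A further heart peak in E11.5 replicate 1, chr13:83884112-83885279, was also inside sequence covered in forebrain. The E11.5 heart lists are of the IO series and E14.5 of the LPAN series, so the peak was present in both. The best heart peak of each list held ranks of 10194 to 11795 and was 1.62 to 1.81 kb wide, and the further peak was 1.17 kb wide, while the widest forebrain peak of each list was 22.01 to 41.7 kb wide.

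Mir9-3, on chr7:86620001-86710000, was the most variable window. Its forebrain coverage was 62.2% and 56.7% in the E11.5 replicates, 25.0% at E14.5, 62.0% at E17.5, 24.2% at P0, 63.7% at P7, 39.2% at P21, and 60.7% and 27.2% in the P56 replicates. High and low values alternated along the stages, and the P56 replicates differed by 33.5 percentage points, a gap within 1 stage of the same order as those between the high and the low stages. Forebrain averaged 45.4% ± 16.9 (SD, n = 7 stages), and neither heart nor liver had a peak in any list.

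The alternation came from one stretch of Mir9-3. At E17.5 a single peak ran over chr7:86640499-86696323, 55.8 kb, and at P7 one of 55.9 kb ran over nearly the same bases. At E14.5 and P0 the peak began only at chr7:86674313 and chr7:86674397, and its widths were 22.5 and 21.8 kb. The 33.8 kb on the lower side, chr7:86640499-86674312, a stretch chosen after its values were seen, was covered to 100% and 94.4% in the E11.5 replicates, 0% at E14.5, 100% at E17.5, 0% at P0, 99.8% at P7, 72.6% at P21, and 100% and 44.7% in the P56 replicates. The upper part held a peak at every stage, and chr7:86687252-86692484 was covered in all 9 lists.

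The E14.5 and P0 lists held 27288 and 30308 peaks, and the E17.5 list held 20450. In the genome 21 intervals of at least 20 kb were covered without a break at both E17.5 and P7, and 1 of them was that of Mir9-3. Of the other 20, 1 was under 50% covered at E14.5 and 0 at P0, so Mir9-3 was the only one under 50% covered at both. Of the 9743 other intervals of at least 2 kb, 41, or 0.421%, were under 50% covered at both. These counts describe a stretch chosen for its gaps and test nothing. All lists from E11.5 to P56 replicate 1 are of the same name series. E14.5, E17.5, P0 and P7 had 1 forebrain library each, and the cause of these gaps was not tested.

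**Figure D2:**
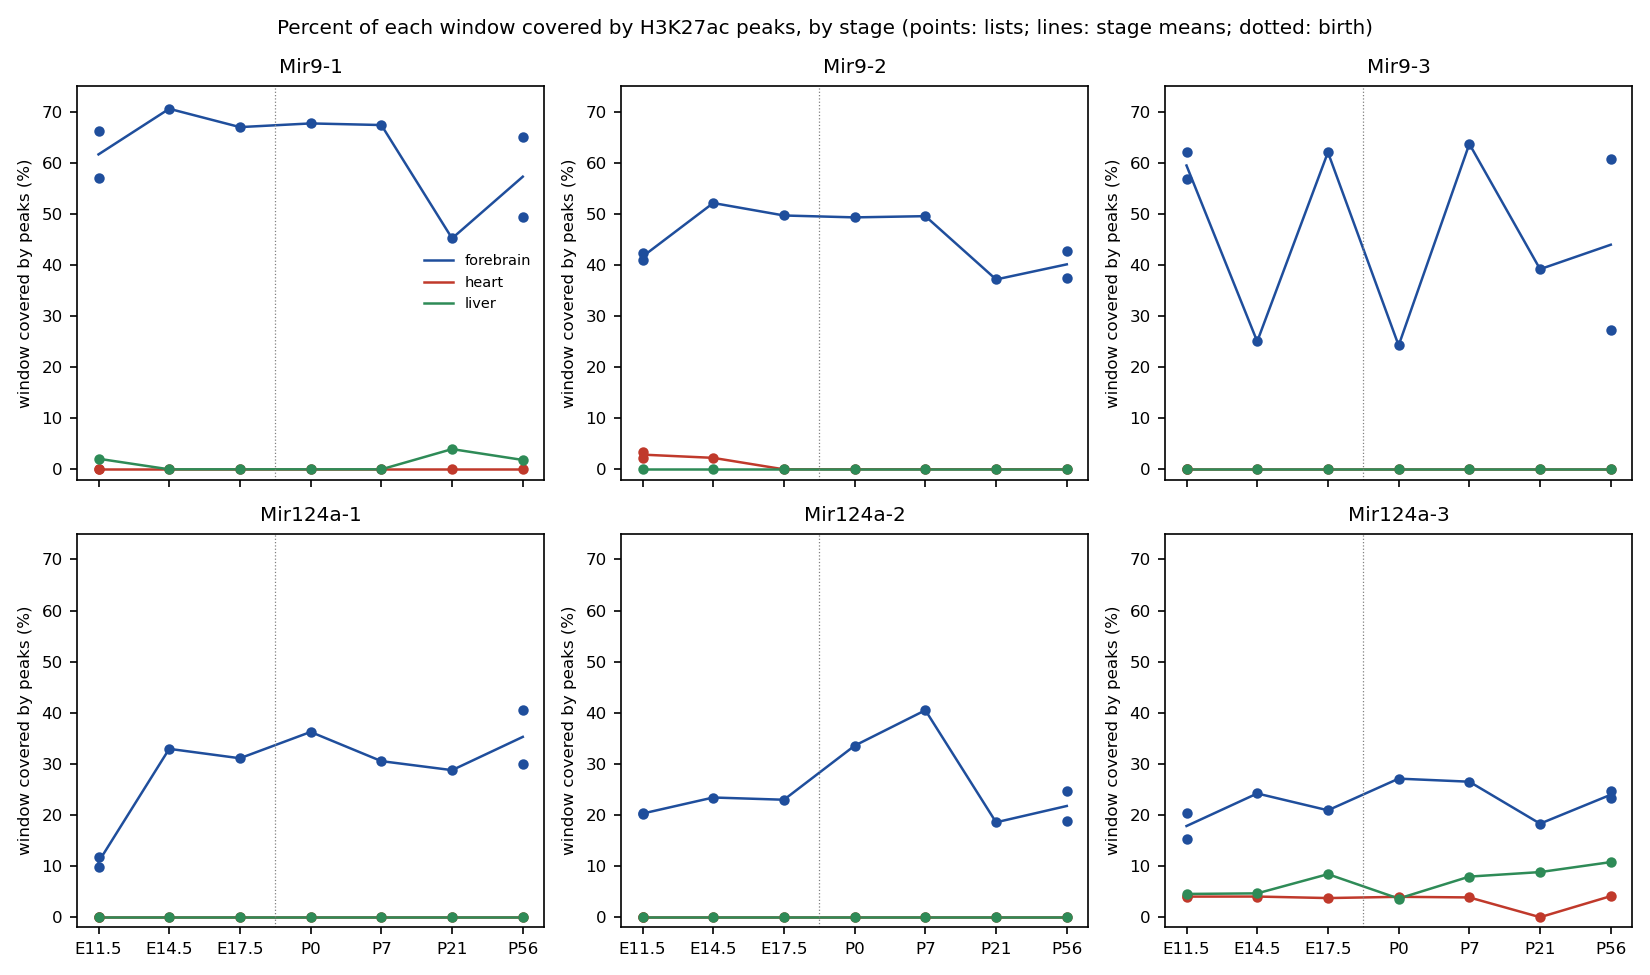
Percent of each window covered by H3K27ac peaks (y axis) at the 7 stages (x axis) in forebrain, heart and liver; points are lists, lines are stage means and the dotted line is birth. Mir9-3 forebrain drops to 25.0% at E14.5 and 24.2% at P0 between stages with every list at 56.7% or more, and Mir124a-1 is lowest at E11.5.

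Mir124a-1, on chr14:65170001-65240000, was little covered at the earliest stage. Its forebrain coverage was 11.8% and 9.82% in the E11.5 replicates, 32.9% at E14.5, 31.1% at E17.5, 36.2% at P0, 30.5% at P7, 28.8% at P21, and 40.6% and 30.0% in the P56 replicates. All 7 later lists lay above both E11.5 lists, with 28.8% as the lowest later value. This was so in 1 of the 6 windows, and in 16.6% of the 20866 tiles with a forebrain peak, a split of the stages made after the values were seen. Forebrain averaged 29.4% ± 8.60 (SD, n = 7 stages), and heart and liver had no peak in any list.

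The main peak of Mir124a-1 at E11.5 lay at chr14:65204203-65211044 in replicate 1 and chr14:65203811-65210682 in replicate 2, with widths of 6.84 and 6.87 kb. Replicate 1 also had a peak of 1.42 kb at chr14:65215686-65217108, ranked 14303 of 15823. From E14.5 on a wider peak lay over most or all of the same bases, of 20.1 kb at E14.5, 19.7 kb at E17.5, 20.04 kb at P0, 19.8 kb at P7 and 14.2 kb at P21. In P56 replicate 1 it was 28.4 kb wide and in P56 replicate 2 it was 15.6 kb wide. The added bases were on both sides, so the early peak lay inside the later domain.

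A separate smaller peak below that domain was called at E14.5, E17.5, P0 and P21 and in P56 replicate 2, and P56 replicate 1 covered the same bases within its single wide peak. It spanned chr14:65191895-65194880 at E14.5 and chr14:65190585-65196480 at P21, where it held rank 2359 of 15246. In P56 replicate 2 it held rank 1734 of 25709, close to the rank of 1557 of the main peak in that list. At E14.5 its rank was 15747 of 27288. Neither the E11.5 lists nor P7 had a peak at those bases.

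Mir124a-2, on chr3:17660001-17730000, was most covered at P0 and P7. Its forebrain coverage was 20.4% and 20.2% in the E11.5 replicates, 23.4% at E14.5, 23.0% at E17.5, 33.6% at P0, 40.5% at P7, 18.6% at P21, and 24.7% and 18.9% in the P56 replicates. P0 and P7 were the only values above 25%. The E11.5 replicates differed by 0.196 percentage points and the P56 replicates by 5.80. Forebrain averaged 25.9% ± 8.05 (SD, n = 7 stages), with no heart or liver peak in any list.

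The main Mir124a-2 peak kept its place in all lists, and chr3:17684368-17697363, the whole of the P21 peak, was covered in all 9. P0 and P7 added sequence above it: at P7 the peak reached chr3:17707060 and was 25.1 kb wide, and at P0 separate peaks covered chr3:17700919-17703050 and chr3:17704132-17706487. Sequence in that stretch was also called at E17.5, at chr3:17704485-17706054, and in P56 replicate 1, at chr3:17700848-17702362. P0 and P7 also had a small peak further up, at chr3:17723408-17724891 and chr3:17723510-17725237, ranked 22238 of 30308 and 31893 of 36771. These are the lists with the highest peak numbers of forebrain but for P56 replicate 1, which held 33178. At the length of the shortest forebrain list, 11871 peaks each, the Mir124a-2 stage difference given further on was 3.56 in place of 6.37 percentage points.

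Mir124a-3, on chr2:180600001-180660000, had the lowest average forebrain coverage and was the only window marked in nearly all lists of the other tissues. Its forebrain coverage was 20.3% and 15.4% in the E11.5 replicates, 24.2% at E14.5, 20.9% at E17.5, 27.1% at P0, 26.5% at P7, 18.3% at P21, and 24.7% and 23.2% in the P56 replicates. Heart coverage lay between 3.74% and 4.12% in 7 of 8 lists and was 0 at P21. Liver coverage was 4.55% at E11.5, 4.66% at E14.5, 8.42% at E17.5, 3.65% at P0, 7.94% at P7, 8.83% at P21 and 10.8% at P56. The lowest forebrain value, 15.4%, lay above the highest liver value, 10.8%, the closest approach of the tissues in any window.

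The signal of Mir124a-3 fell into 4 separate stretches. The largest, chr2:180622092-180633557, held peaks of 7.52 to 10.99 kb in all 9 forebrain lists and in no other list, and chr2:180612520-180616218 held peaks in 8 forebrain lists, all but E11.5 replicate 2. The stretch chr2:180653679-180656852 near the upper edge held a peak in 23 of the 24 lists, all 9 of forebrain, 7 of 8 of heart and all 7 of liver. Heart P21, the shortest list, was the one without. The heart P21 input list did hold a peak there, at chr2:180654163-180656018, so the missing call is not read as absent marking. The last, chr2:180639127-180642816, was called in liver only, at E17.5, P7, P21 and P56, with ranks between 14811 and 24215. The sequence that heart shared with forebrain at this locus was thus a stretch marked in every tissue, whereas the main forebrain domain was free of heart and liver peaks.

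Averaged over stages, Mir124a-3 was covered to 22.7% ± 3.74 in forebrain, 3.40% ± 1.504 in heart and 6.98% ± 2.68 in liver (SD, n = 7 stages). Forebrain minus heart was 19.3 percentage points, and 19.5 without P21. Of the 2.68 kb with a heart peak in the window, 2.20 kb were also covered in some forebrain list, and of the 6.86 kb with a liver peak, 2.20 kb were. The heart lists of the IO series, E11.5 and P56, had 3.95% to 4.12% of the window covered, against 15.4% to 27.1% in the IO forebrain lists. At P56 in the LPAN series forebrain replicate 2 had 23.2% and liver 10.8%.

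Within the IO series alone forebrain was again covered more than heart in the other 5 windows. At Mir9-2 the IO forebrain lists covered 37.2% to 52.1% and the 3 IO heart lists 0% to 3.49%. The 8 IO forebrain lists covered 45.2% to 70.5% of Mir9-1, 24.2% to 63.7% of Mir9-3, 9.82% to 40.6% of Mir124a-1 and 18.6% to 40.5% of Mir124a-2, and the IO heart lists covered none of these 4. Forebrain P56 replicate 2, in the LPAN series with all liver lists, covered 49.4% of Mir9-1, 27.2% of Mir9-3, 30.0% of Mir124a-1 and 18.9% of Mir124a-2, and the highest liver value in these windows was 3.96%, at Mir9-1. Input lists were nearly empty here: 1 of 144 combinations of a window and an input list had a peak, Mir124a-3 in the heart P21 input.

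The windows were also compared by the place of their peaks within each list, which does not depend on the list of another stage. By width, Mir9-1 held one of the 10 widest peaks in all 9 forebrain lists, Mir9-2 in 7 and Mir9-3 in 5, while no Mir124a window did in any list. The single widest peak of the list was at Mir9-3 in E11.5 replicate 1 and at E17.5, at Mir9-2 in E11.5 replicate 2 and at Mir9-1 at P0. The best place of Mir124a-1 was 22, at P21, that of Mir124a-2 was 12, in E11.5 replicate 2, and that of Mir124a-3 was 104, in the same list. These are the shortest forebrain lists, and P21 held 4 peaks of 20 kb or wider and E11.5 replicate 2 held 7. P56 replicate 1 held 153, so places do not compare widths between lists. No Mir124a window stood ahead of Mir9-1 or Mir9-2 in any list, but Mir124a-1 stood ahead of Mir9-3 at P21, at place 22 against 26, and in P56 replicate 2, at 134 against 148.

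The authors' rank, whose basis is not given in the sources used here, separated the families less. The best rank at Mir9-1 was 439 and 67 in the E11.5 replicates, 45 at E14.5, 8 at E17.5, 433 at P0, 99 at P7, 1277 at P21, and 505 and 538 in the P56 replicates. The best rank at Mir124a-1 was 3772 and 4172 in the E11.5 replicates, 587 at E14.5, 24 at E17.5, 319 at P0, 94 at P7, 376 at P21, and 746 and 1557 in the P56 replicates. Mir124a-1 thus ranked far lower than Mir9-1 at E11.5 and stood ahead of it at P0, P7 and P21. As a percentile of the list, with the best peak near 100, the best peak of Mir124a-2 lay between 90.5, at P21, and 99.8, in P56 replicate 2. Its most covered stages differed in this, with 99.2 at P7 and 94.7 at P0. The percentiles ran from 84.6 to 98.1 at Mir124a-3, from 95.7 to 99.7 at Mir9-2 and from 84.6 to 99.3 at Mir9-3.

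**Figure D3:**
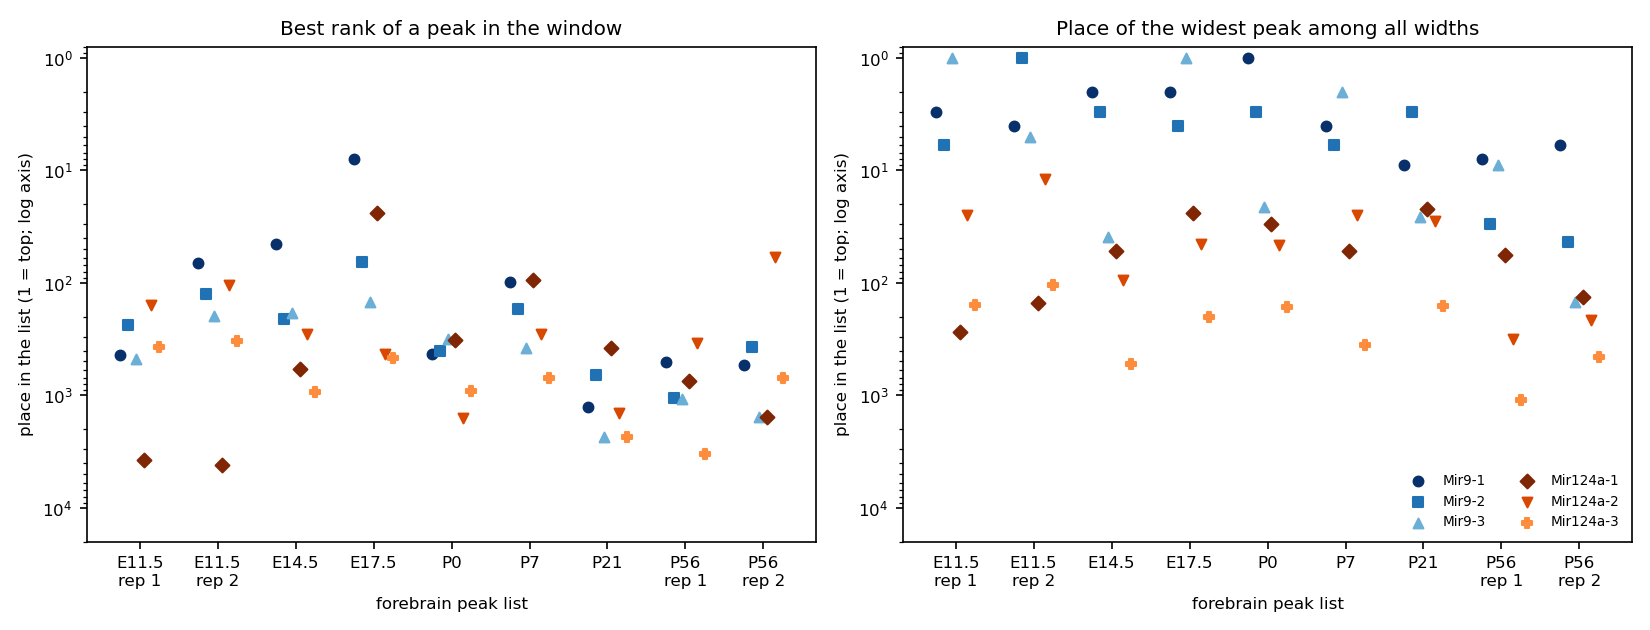
Place of the widest peak of each window among all widths of its list, and best rank by the authors, in the 9 forebrain lists (x axis); y axes are logarithmic with place 1 at the top. Mir9-1 stays within the 10 widest of every list, and Mir124a-1 has ranks of 3772 and 4172 at E11.5 and of 24 at E17.5.

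The part of each forebrain domain that was covered in all 9 lists differed between loci. It was 68.8% of the bases ever covered at Mir9-2, 50.2% at Mir9-1, 45.5% at Mir124a-2, 38.7% at Mir124a-3, 20.1% at Mir124a-1 and 13.6% at Mir9-3. The extremes were thus both miR-9 loci: Mir9-2 kept 28.7 of 41.7 kb in every list and Mir9-3 8.24 of 60.7 kb. Bases covered in a single forebrain list were between 0.192 kb, at Mir124a-3, and 5.97 kb, at Mir124a-1.

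The surroundings differed as well. In the 100 kb on each side of Mir124a-2 the median coverage over lists was 0 in all tissues on both sides, and the nearest heart and liver peaks outside the window were 222 and 221 kb away, so the forebrain domain stood alone. Around Mir9-2 no list of any tissue had a peak within 20 kb of the window. At Mir9-1 the lower flank was covered in all tissues, with a median of 16.4% in forebrain, 27.1% in heart and 18.9% in liver, against 66.2%, 0% and 0% within the window. The nearest peak outside Mir9-1 was 6.83 kb away in forebrain, 6.75 kb in heart and 6.79 kb in liver. At Mir124a-1 the median coverage of the lower flank was 23.7% for forebrain, 0% for heart and 1.68% for liver, so that forebrain coverage there ran beyond the window, with the nearest forebrain peak 4.55 kb outside it.

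**Figure D4:**
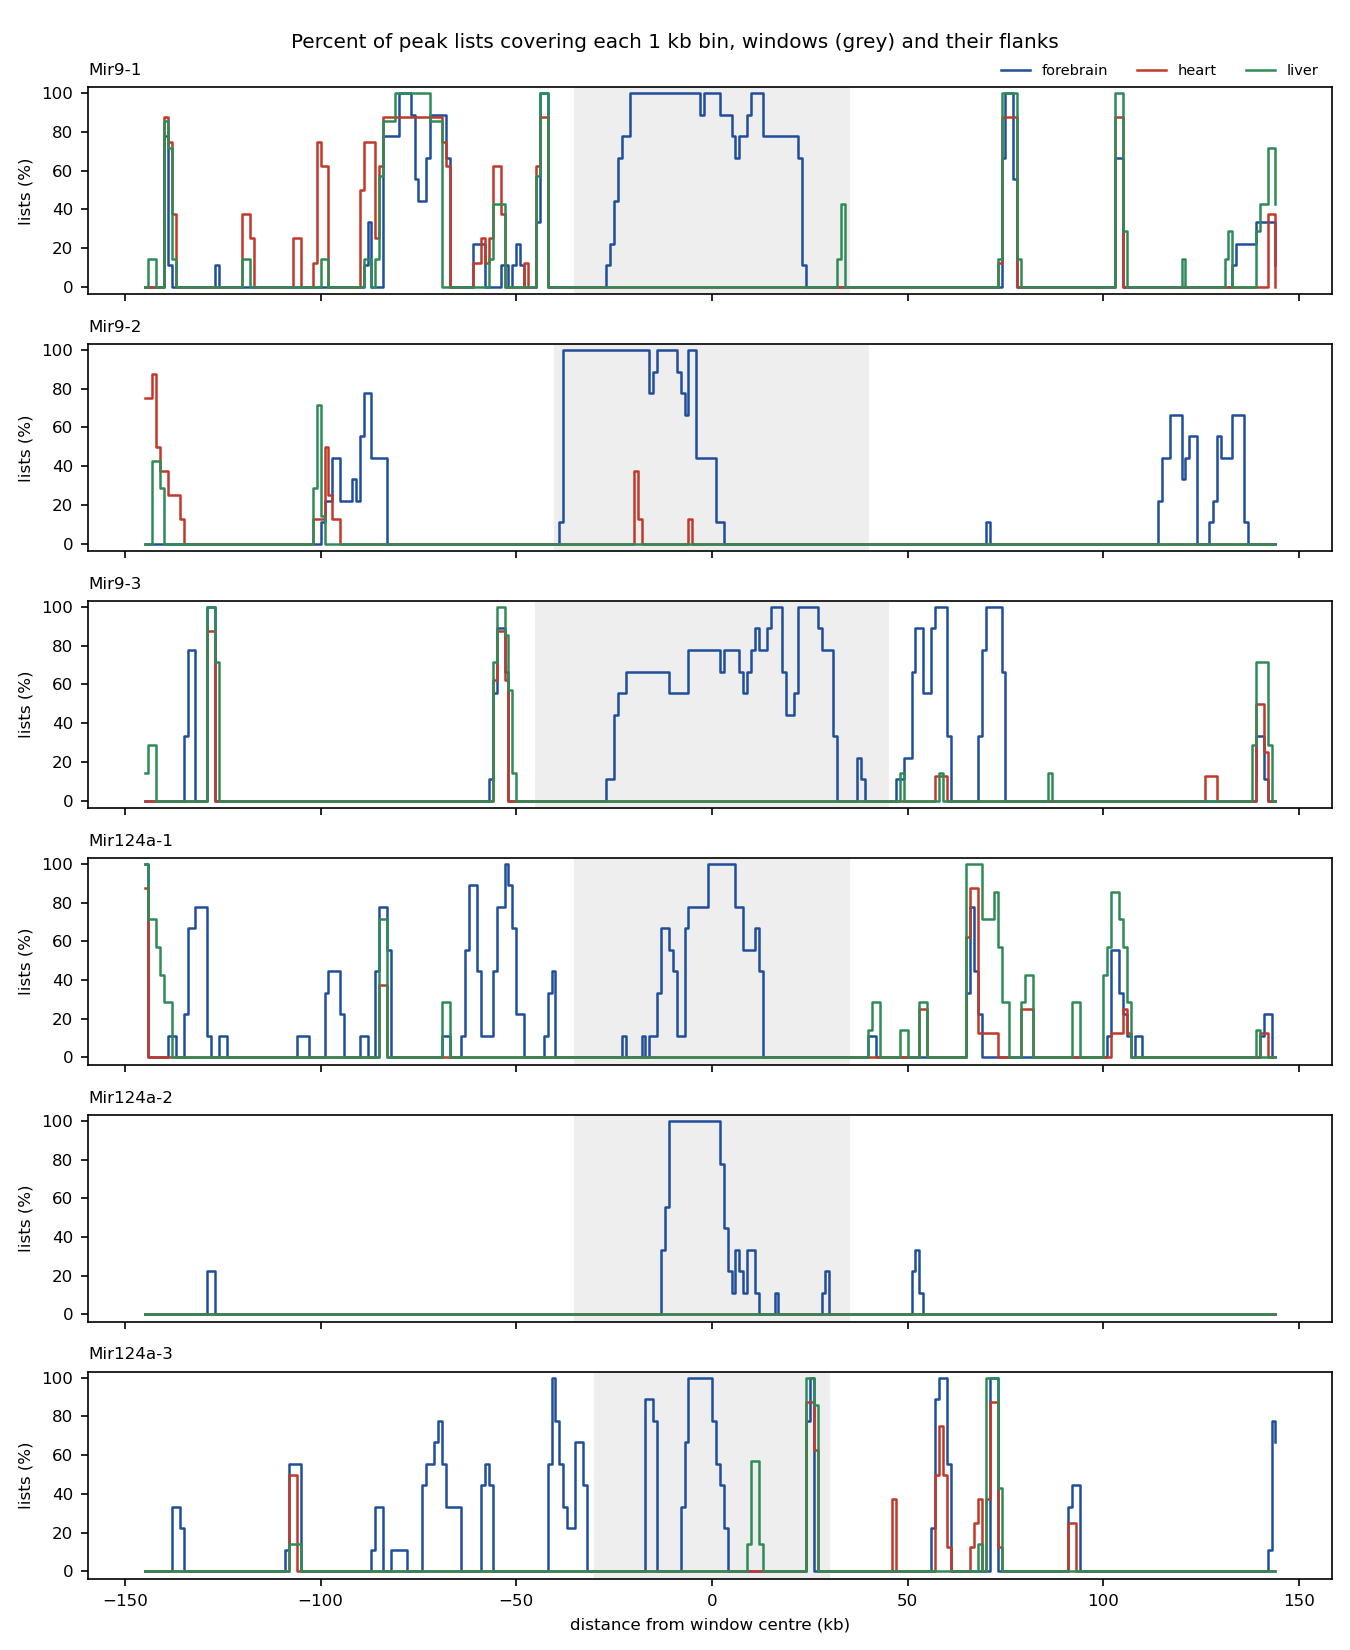
Percent of the forebrain, heart and liver lists that covered each 1 kb bin (y axis) against distance from the window centre in kb, with the window in grey and at least 100 kb of flank on each side. Forebrain stands alone across Mir124a-2, while all tissues have peaks in the lower flank of Mir9-1.

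The stage contrast in forebrain was not used in picking the windows and was tested. Replicates of a stage were averaged, the postnatal stages P0, P7, P21 and P56 were set against the 3 embryonic stages, and the difference was tested with a two-sided exact permutation test over the 35 splits of the stages. The smallest p that this allows is 0.0286. P-values were adjusted by the Benjamini-Hochberg method over all 20866 tiles with a forebrain peak and the windows. None of the 6 windows had an unadjusted p under 0.05, against 2.28% of tiles in either direction and 1.83% with a higher postnatal mean. No tile had an adjusted p under 0.05. With 35 splits that would need most of the tiles at the smallest p, so the adjusted values decide nothing here. In none of the windows were the postnatal values clear of the prenatal ones. Of the tiles, 7.18% were clear and higher postnatally and 0.628% clear and lower. With 6 windows, counts of 0 are near these shares, so they are not read as a difference from the genome.

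The Mir9 windows had lower postnatal means and the Mir124a windows higher ones, none beyond the spread between stages. Mir9-1 averaged 59.4% ± 10.6 postnatally and 66.4% ± 4.49 prenatally, a difference of -7.00 percentage points (exact permutation p = 0.429, adjusted p = 0.785). The other Mir9 differences were -3.78 at Mir9-2 (exact permutation p = 0.371) and -6.08 at Mir9-3 (exact permutation p = 0.657). Mir124a-1 averaged 32.7% ± 3.62 postnatally and 24.9% ± 12.3 prenatally, a difference of 7.76 percentage points (exact permutation p = 0.257, adjusted p = 0.785). The large prenatal SD of Mir124a-1 came from its low E11.5 value, and without E11.5 its difference was 0.69. Mir124a-2 differed by 6.37 (exact permutation p = 0.4) and Mir124a-3 by 2.98 (exact permutation p = 0.314). P21 was a single short list. Without it the differences were -2.27 at Mir9-1, -1.49 at Mir9-2, -4.88 at Mir9-3, 9.07 at Mir124a-1, 9.71 at Mir124a-2 and 4.87 at Mir124a-3, in the same directions. With a stage left out too few splits remain for any p under 0.05, so no p is read there.

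Over the genome, coverage by listed peaks was mostly higher after birth. The postnatal forebrain lists covered 81.9 Mb at P0, 105 Mb at P7, 36.0 Mb at P21, and 111 and 74.1 Mb at P56. The prenatal ones covered 39.9 and 28.3 Mb at E11.5, 82.9 Mb at E14.5 and 48.4 Mb at E17.5. Whether list size or acetylation underlies the rise was not tested. Of the tiles with a forebrain peak 72.0% had a higher postnatal mean, with a median difference of 0.83 percentage points, and of the 3939 tiles covered to at least 15% at some stage 77.5% did, with a median of 5.36. The median of the 6 windows was -0.396 and 3 were higher. Scaled to the mean of all tiles in the same list, 1 window, Mir124a-1, was higher postnatally: on that log2 scale Mir124a-2 differed by -0.20 and Mir124a-3 by -0.30, so the direction at these loci depends on the scaling. The windows were not tested against other tiles.

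**Figure D5:**
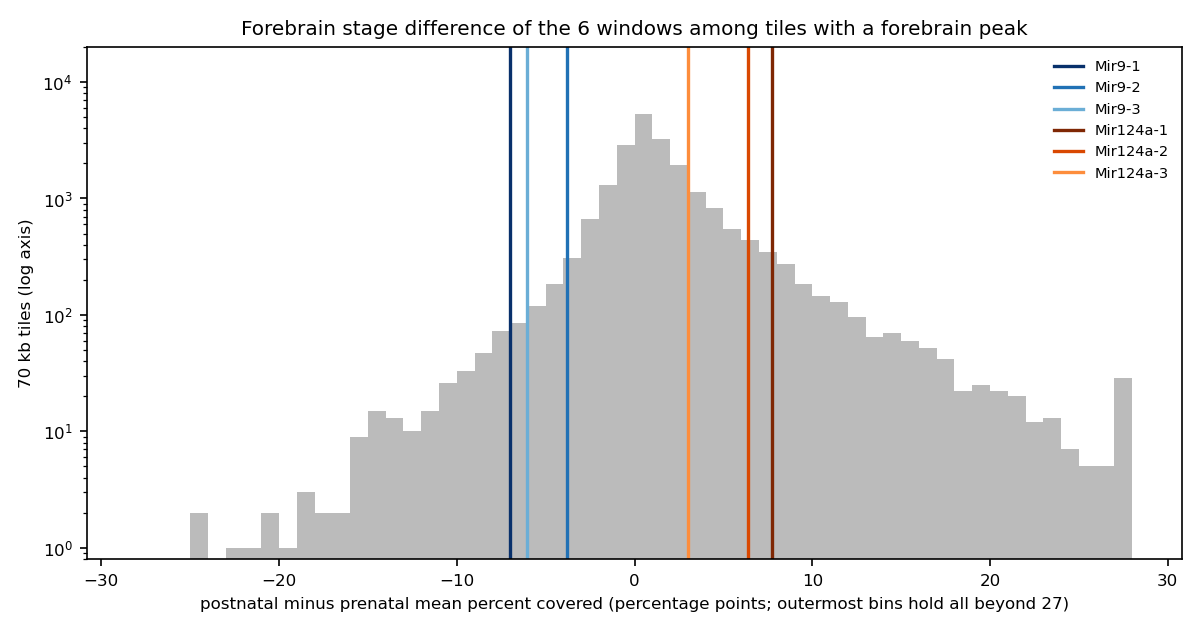
Postnatal minus prenatal mean percent covered in forebrain (x axis, percentage points) for the 6 windows (vertical lines) over the histogram of the 20866 tiles with a forebrain peak (y axis, logarithmic). The lines lie between -7.00 at Mir9-1 and 7.76 at Mir124a-1.

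Of the forebrain stages only E11.5 and P56 had replicates, and these were set against each other with no test, since an exact permutation of 2 lists against 2 cannot give a small p. In 2 windows, Mir124a-1 and Mir124a-3, both P56 lists were above both E11.5 lists, and in no window were both below. Of the tiles, 56% had both P56 lists above and 8.11% both below, so a count of 2 in 6 was not above the background. Mir124a-1 had 40.6% and 30.0% at P56 and 11.8% and 9.82% at E11.5, a difference of 24.5 percentage points. Mir124a-3 had 24.7% and 23.2% at P56 and 20.3% and 15.4% at E11.5, a difference of 6.13. With 11871 peaks in each list Mir124a-1 had 40.6% and 30.0% at P56 and 9.77% and 9.82% at E11.5, a difference of 25.5. An equal number of peaks does not make their widths equal. The full lists covered 111 and 74.1 Mb at P56 and 39.9 and 28.3 Mb at E11.5. Whether this bears on the gap was not tested.

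The other windows overlapped between P56 and E11.5. The differences were -4.36 percentage points at Mir9-1, -1.52 at Mir9-2, -15.5 at Mir9-3 and 1.48 at Mir124a-2. Within the IO series, P56 replicate 1 differed from the E11.5 mean by 3.50 at Mir9-1, 1.10 at Mir9-2 and 1.24 at Mir9-3, which turns the sign of all 3 Mir9 differences. The same comparison gave 29.7 at Mir124a-1, 4.38 at Mir124a-2 and 6.84 at Mir124a-3. P56 replicate 2 is the only LPAN forebrain list. Other lists mattered too: without P56 replicate 1 the difference was -12.2 at Mir9-1, -4.13 at Mir9-2, -32.2 at Mir9-3 and -1.42 at Mir124a-2. Without E11.5 replicate 1 it was 0.27 at Mir9-1, and without E11.5 replicate 2 it was -8.99 there. The direction at these 4 windows was thus not settled, while Mir124a-1 kept a difference of 19.2 to 29.7 and Mir124a-3 one of 3.65 to 8.60 with any 1 of the 4 lists left out.

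The windows did not move as one over the 9 forebrain lists. Pearson's r of percent covered was 0.850 between Mir9-1 and Mir9-2, 0.750 between Mir124a-1 and Mir124a-3 and 0.725 between Mir124a-2 and Mir124a-3, while r of Mir9-3 with the other 5 lay between -0.345 and 0.225. These values describe lists that share their length and depth between windows, and they are given with no test.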

How the data were processed

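The deposited files are peak lists of 24 H3K27ac and 24 input libraries and a summary table. The submitters' processing notes name BWA, MACS 1.4 and mm9, and what each was used for, with which settings, is not given in the sources used here. Per the file headers each line gives a position and a rank, with no score. The summary gives read counts and peak counts per library, as deposited by the authors. P0 is written P1 and P21 is written P20 in the summary and the track names.

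Percent covered was computed for the 6 windows and for tiles of 70 kb. Groups came from the sample labels, with replicates of a stage averaged. Stages were tested by exact permutation with Benjamini-Hochberg adjustment. The unadjusted permutation test was checked on simulated data with planted shifts much larger than the differences at the windows. Its power at differences of that size was not examined. P-values measure only the spread between the stage values, and the spread between replicates of a stage does not enter them. Alternatives varied list length, strictness, overlap, window edges, scaling (log2 with a pseudocount of 0.1 percentage points), stages, replicates and input filtering; filtering with the heart P21 input left out was chosen after seeing the data. Members and lists were chosen with earlier results of these data known. The rule for other named regions took the 5 tiles with the highest Pearson r with the mean of the 6 windows over the 24 lists, among tiles with at least 10% covered in a list. Genes of the miR-9 and miR-124 pathways, and tissue markers to check the labels, have no mm9 positions in the sources used and were not analysed here, nor was the place of the hairpins within the windows. Percentages are of window length; positions are 1-based. Python 3.11.15, numpy 2.4.6, pandas 2.3.3 and scipy 1.17.1 were used.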

Additional observations from a re-analysis of the deposited data

Results flagged for a closer look

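One signal lay outside the H3K27ac lists. The heart P21 input list had 2 peaks in the Mir124a-3 window, at chr2:180639786-180641594 and chr2:180654163-180656018, which covered 6.11% of it. It was singled out because the other 23 input lists had no peak in any of the 6 windows. The H3K27ac list of heart P21 had no peak in that window. The other heart H3K27ac lists had a peak at the second of these places, as did all 9 forebrain and all 7 liver H3K27ac lists. At the first place 4 liver H3K27ac lists had one.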

How the results depend on the processing

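Scaling each list to the mean of its tiles turned the postnatal minus prenatal difference to -0.20 at Mir124a-2 and -0.30 at Mir124a-3 (log2) and left 1 window higher postnatally in place of 3. Counting peaks instead of bases turned it to 0.167 at Mir9-1, 0.583 at Mir9-2 and 0.792 at Mir9-3, with all 6 windows higher. Without E11.5, Mir9-2 became clear of overlap, so that the count was 1 in place of 0. The other 91 stage differences kept their direction. No alternative brought an unadjusted p under 0.05, but with a stage left out too few splits remain to give one. Adjusted p lay between 0.516 and 1. Without P21, the only library of its stage, the difference shrank to -2.27 at Mir9-1 and -1.49 at Mir9-2 and was 4.87 at Mir124a-3. Without 1 replicate at a time the differences ranged from -8.97 to -5.04 at Mir9-1, -4.43 to -3.12 at Mir9-2, -10.3 to -1.89 at Mir9-3, 6.44 to 9.08 at Mir124a-1, 5.64 to 7.09 at Mir124a-2 and 2.16 to 3.81 at Mir124a-3. The replicate block, pairing P56 and E11.5 by number, must give the same mean differences by arithmetic, such as 24.5 at Mir124a-1, so it checks nothing. The numbers are also not stated to pair the samples. Of 42 window and stage combinations, all had forebrain peaks in every setting. Heart had 8, liver 10; with the best 5000 peaks of each list heart had 0 and liver 3, and with windows widened by 20 kb heart had 22 and liver 25. At 7376 peaks in every list, forebrain minus heart at Mir124a-3 was 15.9 in place of 19.3. The cause of these shifts was not tested. Peaks below the authors' calling threshold or removed by the unstated filter cannot be seen, and heart and liver libraries reached lower read counts than forebrain ones.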

Other observations

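Of 13712 tiles outside the windows, 48 had a Pearson r of at least 0.9 with the mean coverage of the 6 windows over the 24 lists, and the median r was -0.294. The r describes lists that share depth and tissue and is given with no test. The 5 most alike tiles were chr1:42700001-42770000 (r = 0.985), chr6:39760001-39830000 (0.979), chr3:34510001-34580000 (0.976), chr13:84140001-84210000 (0.975) and chr13:84840001-84910000 (0.970). The first was covered to a mean of 46.3% in forebrain and 0% in heart and liver, and the third to 43.8% in forebrain and 0% in heart and liver. The tile on chromosome 6 was covered to 9.67% in forebrain, 2.15% in heart and 2.26% in liver, so it resembled the loci in its pattern and not in its level. Both chromosome 13 tiles, at 21.1% and 21.4% in forebrain, lie on the same chromosome as Mir9-2.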
